A study of Mus musculus with 161 samples.

Results

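Among the blood monocytes of this single-cell series, the cells with MHC class II transcripts were set against the cells with few or none. Of 38 blood monocytes, 14 had the class II chain gene H2-Aa above 10 TPM and are called H2-Aa-high here, and 24 had it at or below 10 TPM and are called H2-Aa-low. TPM is the abundance of a gene's transcripts scaled to a fixed total per cell. The series holds 161 cells in all, of which 57 are bone marrow monocytes and 66 are bone marrow cMoP, the common progenitors of monocytes. Every cell was an untreated primary cell of a C57BL/6 mouse, captured on the Fluidigm C1 microfluidic system, which isolates and lyses each cell in its own chamber, and only cells with high-quality cDNA went on to a library. The blood monocytes had been sorted as CD115+ CD11b+ cells with high surface Ly6C, so H2-Aa-high and H2-Aa-low cells share strain, tissue, gate and treatment, and differ by the rule only in H2-Aa. No label names an animal. The cells of each group count as 1 sample, no difference has a replicate check, and no test was made. The members were chosen by the TPM of H2-Aa in these same cells, so the class II values describe how the groups were chosen and the other genes describe what else differed between them.

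MHC class II molecules carry peptides from the endosomes to the cell surface, where CD4 T cells read them. An alpha and a beta chain assemble with the invariant chain CD74 in the endoplasmic reticulum, and the H2-DM heterodimer later exchanges the last fragment of CD74 for a peptide. The genes are switched on by the coactivator CIITA, which is recruited to a conserved promoter module by the RFX complex, CREB and NF-Y. Dendritic cells and B cells express them at a high level, and circulating Ly6C-high monocytes, which are known to become macrophages, dendritic-like cells or Ly6C-low monocytes, express them in part of the population.

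H2-Aa split the blood cells with few values in between. The H2-Aa-high cells had 21.95 TPM at the lowest, 7598 TPM at the median and 19550 TPM at the highest, and the H2-Aa-low cells 0, 2.58 and 9.55 TPM. The cell just inside the threshold had 21.95 TPM and the next 794.5 TPM, and the closest cells below it had 9.55 and 9.34 TPM. Above 1000 TPM lay 12 of the 14 H2-Aa-high cells. H2-Aa was listed at 0 in 6 of the 24 H2-Aa-low cells and lay between 1 and 10 TPM in the other 18.

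One library of the H2-Aa-high group stood apart. The cell just inside the threshold, blood cell 29, had 0.954% of its TPM in ribosomal protein genes, against at least 3.95% in the other 13 H2-Aa-high cells and at least 4.89% in the H2-Aa-low cells. It held 6630 genes above 1 TPM and 377 TPM of the lysozyme gene Lyz2, whose next lowest value in blood was 25841 TPM. List counts and medians are also given without it where it moved them. The median number of genes above 1 TPM was 4497 in H2-Aa-high and 4064 in H2-Aa-low cells, and mitochondrial transcripts made up a median of 3.83% and 4.84% of TPM. All blood cells were run on 1 flow cell and lane, and 7 of its 12 first index sequences were used for cells of both groups.

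The other class II genes were much higher in the cells selected on H2-Aa. A difference is given as the mean of log2(TPM + 1) over H2-Aa-high cells minus that over H2-Aa-low cells, so 1 is a 2-fold difference on that scale. Of 9 class II presentation genes besides H2-Aa, 7 were measured, meaning above 1 TPM in at least 10% of the blood cells. Of these, 5 were at least 2-fold higher and 0 at least 2-fold lower in H2-Aa-high cells, with a median of 5.12, or 5.69 without blood cell 29. Among all 10390 measured genes, 13.1% were at least 2-fold higher and 6.83% at least 2-fold lower, and the median was 0.14. These shares are the background for the counts of every list below.

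The chain genes are protein-coding neighbours in the MHC on chromosome 17 of GRCm38, H2-Ab1 from 34257689 to 34269419 on the plus strand, H2-Aa from 34282744 to 34287823 on the minus strand and H2-Eb1 from 34305867 to 34316674 on the plus strand. Cd74 lies apart on chromosome 18 and Ciita on chromosome 16. The beta chain genes followed H2-Aa. H2-Ab1, the partner of H2-Aa, had 19.4, 7218 and 20934 TPM at the lowest, median and highest of the H2-Aa-high cells, and 0, 9.04 and 36.8 TPM in the H2-Aa-low cells, a difference of 8.48 (9.03 without blood cell 29). All but blood cell 29 of the H2-Aa-high cells lay above every H2-Aa-low cell. H2-Eb1, the beta chain of the second class II molecule, had 0, 2414 and 9403 TPM in H2-Aa-high and 0, 1.22 and 3.61 TPM in H2-Aa-low cells, a difference of 8.72 (9.46 without blood cell 29). H2-Eb1 was above 10 TPM in 12 of 14 H2-Aa-high cells (85.7%, 95% exact interval 57.2 to 98.2%) and in 0 of 24 H2-Aa-low cells. For this share of 0 a limit of 3 cells allows up to 12.5%, and the exact interval reaches 14.2%. The 2 H2-Aa-high cells not above 10 TPM of H2-Eb1 were blood cell 29 and blood cell 26. Blood cell 26 had 2508 TPM of H2-Aa, 97.3 TPM of H2-Ab1 and 2.66 TPM of H2-Eb1. C57BL/6 mice carry a deletion in the alpha chain gene that would pair with H2-Eb1, so its transcript is known to give no surface molecule in this strain.

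Cd74, the invariant chain, reached further into the H2-Aa-low cells than the chains did. It had 19.2, 13230 and 23644 TPM in H2-Aa-high cells and 0, 10.9 and 1661 TPM in H2-Aa-low cells, a difference of 7.58 (8.21 without blood cell 29). Cd74 was above 1000 TPM in 13 H2-Aa-high cells, and among H2-Aa-low cells it was above 100 TPM in 9 and above 1000 TPM in 3. In those 3 cells H2-Aa was at 2.19, 4.11 and 9.55 TPM, so abundant Cd74 was also found in cells with little H2-Aa. H2-Aa, H2-Ab1 and Cd74 all lay above 1000 TPM in 11 of the 14 H2-Aa-high cells.

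The peptide exchange genes overlapped more. H2-DMb1, the DM beta chain, had 0, 444 and 2020 TPM in H2-Aa-high cells and 0, 0 and 659 TPM in H2-Aa-low cells, and was above 10 TPM in 12 and 6 of them, a difference of 5.12. H2-DMa, the DM alpha chain, was above 10 TPM in 14 of 14 H2-Aa-high and in 19 of 24 H2-Aa-low cells, with medians of 1312 and 169 TPM and a difference of 2.61. Most H2-Aa-low cells thus had H2-DMa transcripts, beside at most 36.8 TPM of H2-Ab1. The second DM beta gene, H2-DMb2, differed by 0.39, and H2-Eb2, a beta chain gene of little known expression, reached only 1.65 TPM in H2-Aa-high and 4.01 TPM in H2-Aa-low cells.

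**Figure D1:**
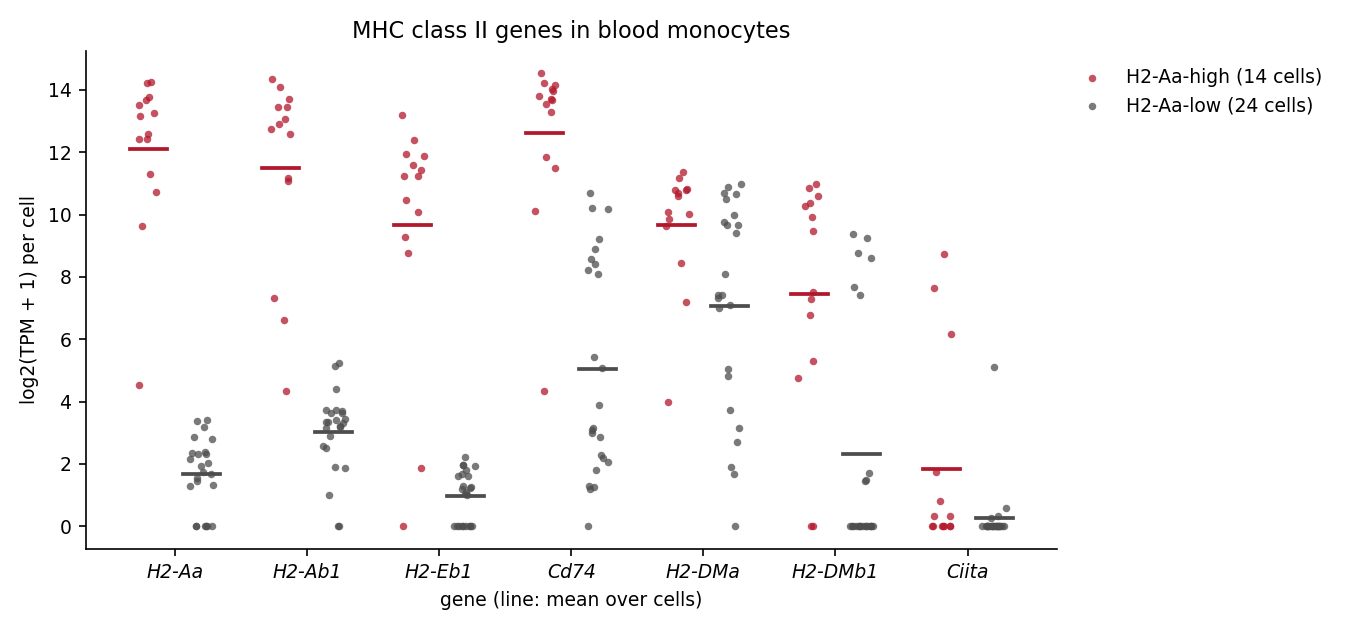
Level of 6 MHC class II genes and their coactivator Ciita in each blood monocyte, as log2(TPM + 1), with H2-Aa-high cells (red) left of H2-Aa-low cells (grey) and lines at the means over cells. Every H2-Aa-low cell stays at or below 36.8 TPM of H2-Ab1, while Cd74 and H2-DMa reach 1661 and 2003 TPM there.

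Within the H2-Aa-high cells the chains and Cd74 varied together. Spearman's rho with H2-Aa over these 14 cells was 0.89 for H2-Ab1, 0.85 for Cd74, 0.75 for H2-Eb1, 0.57 for H2-DMa and 0.47 for H2-DMb1. Without blood cell 29 the values were 0.87, 0.81, 0.69, 0.47 and 0.34. The coefficients of the DM genes were the lower ones. These cells share a lane and a scaling to a fixed total, and the coefficients are descriptions.

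The promoters of some class II genes share a pair of short motifs. The RFX and NF-Y factors bind an X box and a Y box, and RefSeq promoter windows (GRCm38.p6, from 250 bases before to 50 bases after the start) were searched for GNAACT, a core of the X box, followed on the same strand by TGATTGG, a Y box, 10 to 40 bases further on. The letters were chosen after these promoters had been looked at. Of 10 class II presentation genes 8 had a window, all but H2-Ab1 and Cd74, and 4 of them held the pair on the gene's strand, H2-Aa, H2-Eb1, H2-Eb2 and H2-DMb1, with 24 or 25 bases in between. On either strand, 0.274% of all 32851 windows held the pair and 7.82% held TGATTGG. The stretches below run from 150 to 11 bases before the start, with GNAACT and TGATTGG in capitals, and show 2 genes high in H2-Aa-high cells and 1 gene, H2-Eb2, that has the pair but stayed low in all cells. H2-DMb1 is not printed, because its pair lies inside the gene as GENCODE places it. H2-Aa is at chr17:34287834-34287973 on the minus strand, H2-Eb1 at chr17:34305717-34305856 and H2-Eb2 at chr17:34325525-34325664, both on the plus strand.
H2-Aa: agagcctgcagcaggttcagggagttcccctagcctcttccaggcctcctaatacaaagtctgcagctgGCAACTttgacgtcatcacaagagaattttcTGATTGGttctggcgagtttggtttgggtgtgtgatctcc
H2-Eb1: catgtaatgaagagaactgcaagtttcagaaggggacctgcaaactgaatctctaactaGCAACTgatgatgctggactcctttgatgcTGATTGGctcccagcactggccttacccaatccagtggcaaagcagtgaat
H2-Eb2: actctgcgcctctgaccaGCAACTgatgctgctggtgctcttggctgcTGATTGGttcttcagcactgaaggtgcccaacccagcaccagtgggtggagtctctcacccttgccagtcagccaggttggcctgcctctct
The TGATTGG lies 50 bases before the start of H2-Aa, 61 before that of H2-Eb1 and 102 before that of H2-Eb2. H2-Eb2 holds the same pair at the same spacing as H2-Eb1 and was not above 10 TPM in any blood cell. A match of letters is a description and not a bound site.

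The regulators of these promoters did not separate the groups as the class II genes did. Of 7 measured regulators 1 was at least 2-fold higher and 0 at least 2-fold lower in H2-Aa-high cells, beside 13.1% and 6.83% of all measured genes. The regulator median was -0.01. The higher one was Ciita, at 0 to 427 TPM in H2-Aa-high and 0 to 33.5 TPM in H2-Aa-low cells, a difference of 1.58. Ciita was above 10 TPM in 3 of 14 H2-Aa-high cells (21.4%, 4.66 to 50.8%) and in 1 of 24 H2-Aa-low cells (4.17%, 0.105 to 21.1%), so most H2-Aa-high cells had little or no Ciita in the table. The RFX subunit genes Rfxank and Rfxap differed by 0.03 and -0.34, the NF-Y subunit genes Nfya, Nfyb and Nfyc by -0.34, -0.16 and 0.14, and Creb1 by -0.01.

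Class I presentation moved in the same direction by less. Of 8 measured class I genes, 4 were at least 2-fold higher and 0 at least 2-fold lower in H2-Aa-high cells, with a median of 0.82, or 1.13 without blood cell 29. The classical class I heavy chain H2-K1 had 368, 2071 and 4911 TPM at the lowest, median and highest of the H2-Aa-high cells and 7.54, 718 and 4971 TPM in the H2-Aa-low cells, a difference of 2.13. The groups overlapped over most of their range. Tapbp, which encodes tapasin of the peptide loading complex, differed by 2.64, the class I coactivator Nlrc5 by 1.93 and the heavy chain H2-D1 by 1.07. Reads of H2-K1 and H2-D1 can be shared between these similar genes. Of 9 antigen processing proteases and their inhibitors, only the cathepsin gene Ctsd was at least 2-fold higher, at 2.02, and Ctsb and Cst3 differed by -0.49 and -0.53. Of 6 measured costimulation genes only Cd86, a ligand of CD28, was at least 2-fold higher, at 1.99. Its median was 73.3 TPM in H2-Aa-high and 12.4 TPM in H2-Aa-low cells. These counts of 1 of 9 and 1 of 6 lie near the 13.1% of all measured genes that were at least 2-fold higher.

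Ly6c2, the gene behind the Ly6C of the sort, did not separate the groups. It had 21.8, 3253 and 13110 TPM at the lowest, median and highest of the H2-Aa-high cells and 6.48, 2407 and 11863 TPM in the H2-Aa-low cells. Both groups spanned nearly the same range. The difference was 0.14, with means of 10.07 ± 3.44 (SD over 14 cells) and 9.94 ± 3.33 (SD over 24 cells), and 0.51 without blood cell 29. With the H2-Aa threshold at 1 TPM, which leaves 6 cells at or below it, the difference was -0.94. Ly6c1, a near-identical neighbour whose reads can be assigned to either gene, differed by 0.25.

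The blood cells fell into a larger set with abundant Ly6c2 and a smaller one with little. Ly6c2 was at or below 100 TPM in 9 blood cells and above it in 29, and no cell lay between 100 TPM and the 817 TPM of the next. The 9 cells were 4 of the 14 H2-Aa-high and 5 of the 24 H2-Aa-low cells, so both groups held cells of each kind. Ly6c1 was listed at 0 in all 9, while every one had Ccr2, the chemokine receptor of classical monocytes, between 38.1 and 2350 TPM. Gngt2, a G protein subunit gene of Ly6C-low monocytes, was above 10 TPM in 3 of the 4 and in 3 of the 5 cells, and in 9 of 10 H2-Aa-high and 14 of 19 H2-Aa-low cells with abundant Ly6c2. Blood cell 29, the library that stood apart, was among the 4, with 36.8 TPM of Ly6c2, 38.1 TPM of Ccr2 and Gngt2 at 0.

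**Figure D2:**
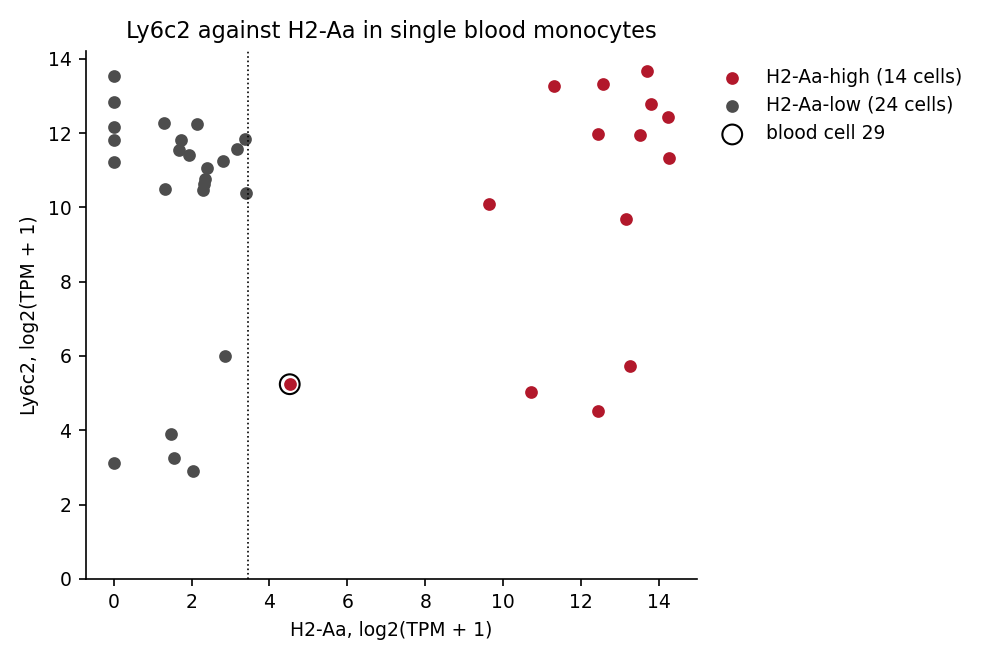
Ly6c2 against H2-Aa in each blood monocyte, both as log2(TPM + 1), with the dotted line at the H2-Aa threshold of 10 TPM and a ring around blood cell 29. Cells with Ly6c2 at or below 100 TPM lie on both sides of the threshold, 4 H2-Aa-high and 5 H2-Aa-low.

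The defining genes of dendritic cells were low or at 0 in most cells of both groups. Zbtb46, a transcription factor of conventional dendritic cells, reached 2.25 TPM in H2-Aa-high and 1.94 TPM in H2-Aa-low cells. Flt3, the receptor for the growth factor of dendritic cells, was above 10 TPM in 0 of 14 H2-Aa-high cells and in 2 of 24 H2-Aa-low cells. For the share of 0 a limit of 3 cells allows up to 21.4%, and the exact interval reaches 23.2%. The lineage factor and its growth factor receptor were thus near 0 in the cells with class II transcripts. Itgax, which encodes CD11c, was listed at 0 in all 38 cells, and a listed 0 can also be a failed estimate. Xcr1, a receptor of type 1 dendritic cells, reached 3.82 TPM in H2-Aa-high and 5.01 TPM in H2-Aa-low cells.

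By list, the dendritic cell genes gave small medians. The list shared by conventional dendritic cells had 1 of 6 measured members at least 2-fold higher in H2-Aa-high cells and a median of 0.41. The type 1 list had 1 of 6 and a median of 0.13. Each count lies near the 13.1% of all measured genes that were at least 2-fold higher. The list members at least 2-fold higher were Relb, an NF-kB subunit, at 1.03 and Batf3, a type 1 factor, at 1.10. Without blood cell 29 Relb stood at 0.97, below 2-fold, and Id2, a transcription factor gene, at 1.2 in place of 0.73. The type 1 median had no stable sign, and was -1.08 with the H2-Aa threshold at 1 TPM. The type 2 and monocyte-derived list had 0 of 3 and a median of 0.34 (-0.03 without blood cell 29), and the plasmacytoid list 0 of 4 and -0.02 (-0.19 without it). In the type 2 and monocyte-derived list 7 of 10 members were not measured. Cd209a, a lectin gene of monocyte-derived dendritic cells, was above 10 TPM in 1 cell of each group, at 504 TPM in the H2-Aa-high and 738 TPM in the H2-Aa-low cell. Irf4, a factor of type 2 dendritic cells, was above 10 TPM in 2 H2-Aa-high cells and in 0 H2-Aa-low cells, with a highest value of 40.02 and 1.74 TPM. Irf8, shared by monocytes and type 1 dendritic cells, differed by 0.07, and Siglech, of plasmacytoid cells, by 0.12.

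Genes of Ly6C-low monocytes went both ways. Of 19 measured members, 6 were at least 2-fold higher and 4 at least 2-fold lower in H2-Aa-high cells, beside 13.1% and 6.83% of all measured genes. The list median was 0.38, or 0.13 without blood cell 29. The higher ones were the Fc receptor gene Fcgr4 at 2.09, Gngt2 at 1.92, the transcription factor gene Klf2 at 1.70, the adhesion receptor gene Emr4 at 1.55, the receptor gene Treml4 at 1.23 and the apolipoprotein gene Apoc2 at 1.21. Fcgr4 was above 10 TPM in 5 of 14 H2-Aa-high cells, up to 1472 TPM, and in 2 of 24 H2-Aa-low cells, up to 88.3 TPM. Fcgr4 was at or below 10 TPM in most cells of both groups.

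Several genes that control or mark the Ly6C-low state were not among the higher ones. Nr4a1, the nuclear receptor that Ly6C-low monocytes need, was above 10 TPM in 5 of 14 H2-Aa-high and in 11 of 24 H2-Aa-low cells, a difference of -1.31. Its mean TPM was 126 in H2-Aa-high and 112 in H2-Aa-low cells, so its direction depended on the measure. Csf1r, which encodes the CD115 of the gate, had 0, 163 and 606 TPM in H2-Aa-high cells and 0.39, 255 and 2715 TPM in H2-Aa-low cells, a difference of -1.22. The other list members at least 2-fold lower were Pou2f2 at -1.21 and Pglyrp1 at -1.04. Spn, which encodes CD43, reached 0.54 TPM in H2-Aa-high cells and was above 10 TPM in 5 H2-Aa-low cells, up to 164 TPM. Cx3cr1, the fractalkine receptor, differed by -0.26, the integrin gene Itgal by 0.38, and Ace, the angiotensin-converting enzyme, by 0.80, which was 0.13 without blood cell 29 and its 1644 TPM.

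Genes of classical monocytes were mostly lower in H2-Aa-high cells. Of 27 measured members, 14 were at least 2-fold lower and 1 at least 2-fold higher, the lipopolysaccharide receptor gene Cd14 at 1.40. The median was -1.02. Without blood cell 29, 8 were at least 2-fold lower and the median was -0.60. The members that differed most were effector and metabolic genes, while the surface receptor Ccr2 and the coagulation factor F13a1 differed by -0.50 and -0.19.

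Chil3, a chitinase-like secreted protein, had 0, 16.2 and 2410 TPM at the lowest, median and highest of the H2-Aa-high cells and 0, 1432 and 8038 TPM in the H2-Aa-low cells, a difference of -3.71 (-3.31 without blood cell 29). It was above 10 TPM in 8 of 14 H2-Aa-high cells (57.1%, 28.9 to 82.3%) and in 20 of 24 H2-Aa-low cells (83.3%, 62.6 to 95.3%). Both groups held cells at 0 and cells above 1000 TPM, and the difference lay in how many cells were at each level. S100a4, a calcium-binding protein of motile cells, had 0, 36.9 and 1972 TPM in H2-Aa-high and 9.13, 452 and 2160 TPM in H2-Aa-low cells, a difference of -3.65. It was above 10 TPM in 8 of 14 H2-Aa-high and in 22 of 24 H2-Aa-low cells. Haptoglobin, Hp, differed by -2.81, the proteoglycan gene Vcan by -2.30 and the glutathione reductase gene Gsr by -2.25. Vcan exceeded 10 TPM in 1 H2-Aa-high and in 9 H2-Aa-low cells.

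Macrophage genes included the largest difference outside class II. Tmem176b, a membrane protein gene of myeloid cells on the minus strand of chromosome 6 from 48833818 to 48841496, had 3.72, 976 and 3093 TPM in H2-Aa-high and 0, 10.3 and 965 TPM in H2-Aa-low cells, a difference of 5.20 (5.75 without blood cell 29). It was above 10 TPM in 13 of 14 H2-Aa-high cells (92.9%, 66.1 to 99.8%) and in 12 of 24 H2-Aa-low cells (50%, 29.1 to 70.9%). The median H2-Aa-high cell lay just above the highest H2-Aa-low cell. Of 11 measured macrophage genes 5 were at least 2-fold higher and 0 at least 2-fold lower, with a median of 0.51, or 0.92 without blood cell 29. The other 4 were Tmem176a at 2.25, the lipid carrier gene Apoe at 1.94, Emr1, which encodes F4/80, at 1.44, and the lipid receptor gene Trem2 at 1.33. Tmem176a runs from 48840919 to 48847071 on the plus strand and overlaps the start of Tmem176b, so reads of the shared stretch cannot be told apart without strand. The complement genes C1qa and C1qc, which tissue macrophages express, reached 1.06 TPM at most in any blood cell.

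**Figure D3:**
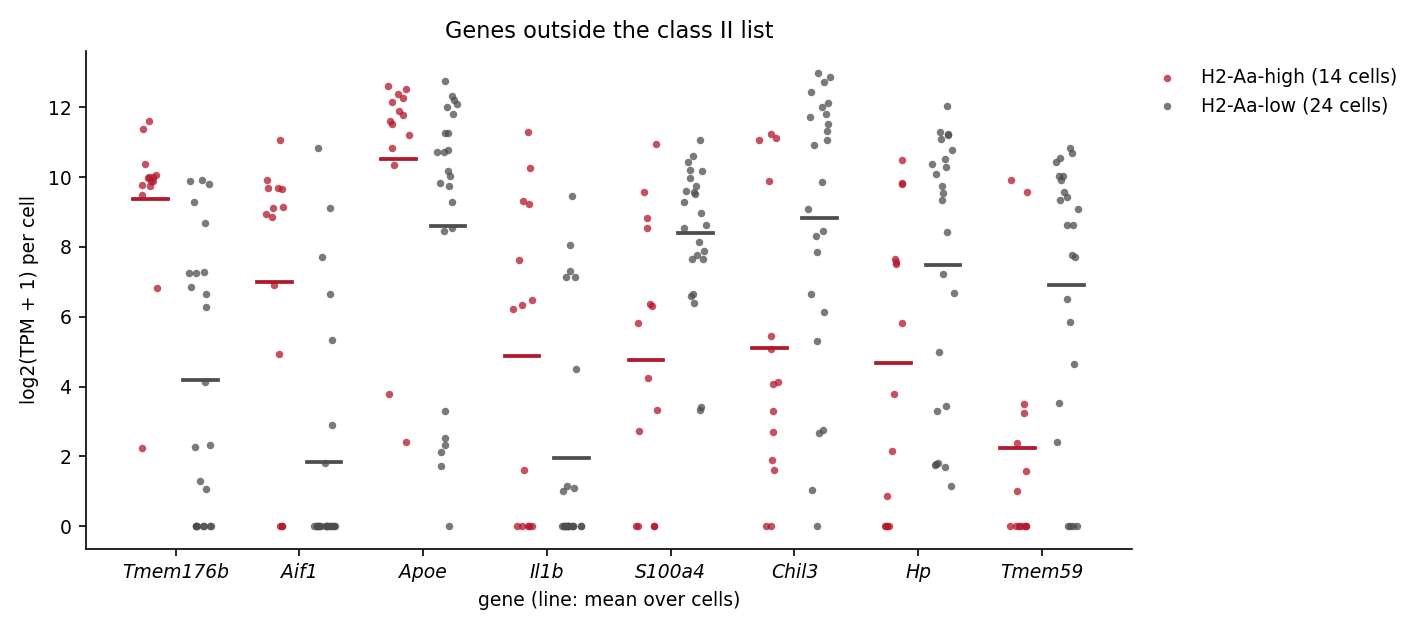
Level of 8 genes outside the class II list in each blood monocyte, as log2(TPM + 1), with H2-Aa-high cells (red) left of H2-Aa-low cells (grey) and lines at the means over cells. Tmem176b is above 10 TPM in 13 of 14 H2-Aa-high cells, and Tmem59 in 3 of 14 against 19 of 24 H2-Aa-low cells, while every gene shown overlaps between the groups.

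Type I interferon response genes leaned to the H2-Aa-high cells. Of 24 measured members, 10 were at least 2-fold higher and 0 at least 2-fold lower, with a median of 0.76. Without blood cell 29 the count was 11 and the median 0.82. The 5 with the largest differences were the oligoadenylate synthetase-like gene Oasl2 at 3.38, the transcription factor genes Irf9 at 3.07 and Irf7 at 2.89, the nucleic acid sensor gene Zbp1 at 2.55 and Ifi35 at 2.07. Irf7 had 0, 257 and 1835 TPM in H2-Aa-high cells and 0, 8.52 and 1417 TPM in H2-Aa-low cells. It exceeded 10 TPM in 12 of 14 H2-Aa-high cells (85.7%) and in 12 of 24 H2-Aa-low cells (50%). The groups overlapped in all 5. Of 10 measured interferon gamma response genes 3 were at least 2-fold higher, among them the GTPase genes Gbp3 at 1.76 and Irgm1 at 1.04, and 4 without blood cell 29.

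Immediate early and stress genes, which can respond to cell handling, had 7 of 21 measured members at least 2-fold higher and 1 at least 2-fold lower. Of all measured genes 13.1% and 6.83% did so. The list median was 0.41. The cytokine gene Il1b differed by 2.93, the NF-kB regulator gene Nfkbiz by 2.54 and the AP-1 subunit gene Jun by 1.81, and the antiproliferative gene Btg2 by -1.40. Without blood cell 29, 8 were at least 2-fold higher and 0 lower, with a median of 0.54, and Btg2 stood at -0.90. Their part in the other differences was not tested. Of 14 measured cell cycle genes, 0 were at least 2-fold higher or lower.

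**Figure D4:**
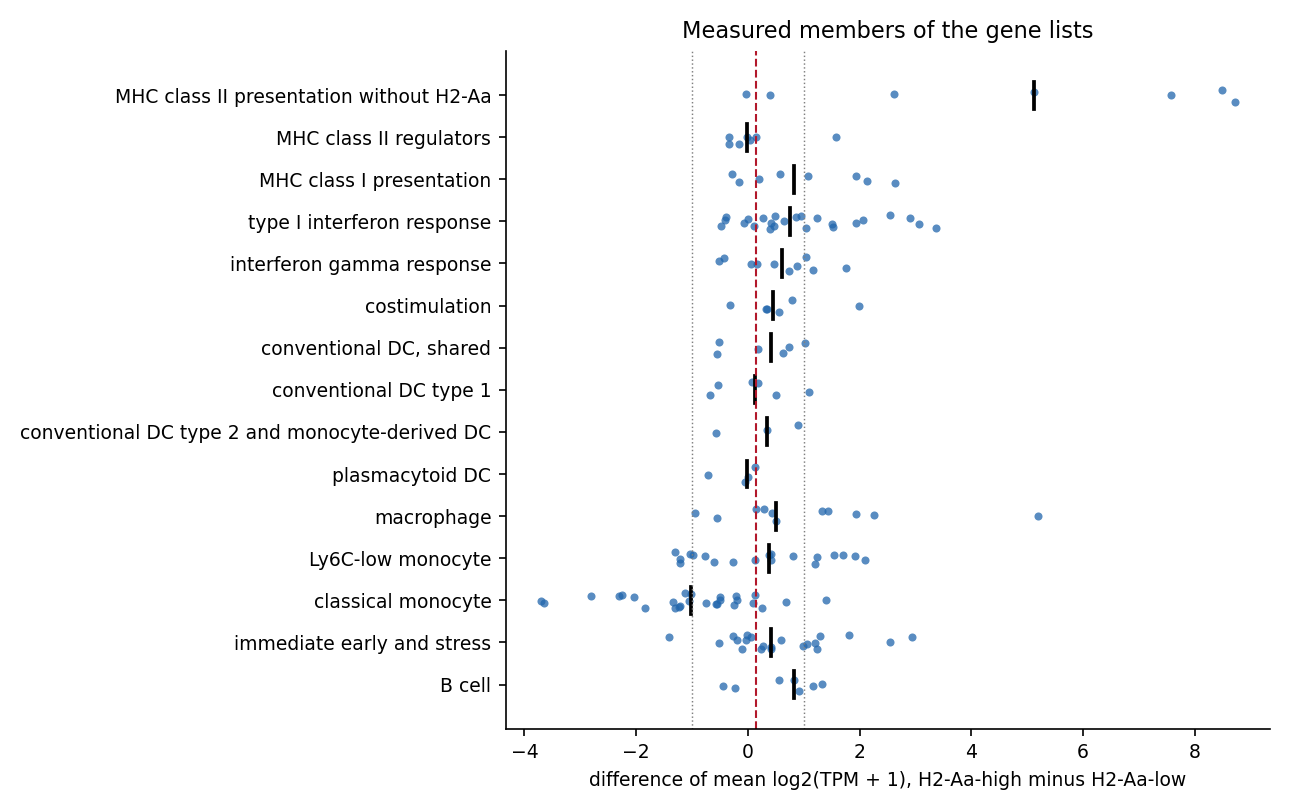
Difference of mean log2(TPM + 1), H2-Aa-high minus H2-Aa-low, for each measured member of 15 gene lists (points), with black bars at list medians, dotted lines at a 2-fold difference and the dashed line at 0.14, the median of all measured genes. The class II list reaches 8.72, and the classical monocyte list extends to -3.71.

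The 10 largest higher differences outside the class II list began with Tmem176b and with Aif1, an actin-binding protein of macrophages and microglia. Aif1 had 0, 521 and 2149 TPM in H2-Aa-high and 0, 0 and 1832 TPM in H2-Aa-low cells, and was above 10 TPM in 11 of 14 and in 5 of 24, a difference of 5.15. The rest were the cell cycle inhibitor gene Cdkn1a at 4.09, the kinase gene Cdk11b at 4.08, the SLAM family receptor gene Slamf8 at 3.93, the Ras-association gene Rassf1 at 3.90, the ribosome assembly gene Fcf1 at 3.86, the ribonuclease gene Rnase6 at 3.66, the vesicle fusion gene Napa at 3.66 and Dfna5, a gasdermin, at 3.62. Slamf8 was above 10 TPM in 7 of 14 H2-Aa-high and in 2 of 24 H2-Aa-low cells. Rassf1 was above 10 TPM in 12 of 14 and in 2 of 24.

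The largest lower difference was that of Tmem59, a membrane protein gene of the Golgi and endosomes, with 0, 0.51 and 971 TPM in H2-Aa-high and 0, 395 and 1824 TPM in H2-Aa-low cells. On chromosome 4 it overlaps the opposite-strand gene Tceanc2, which reached 112 TPM in H2-Aa-high and 5.06 TPM in H2-Aa-low cells, a difference of 1.02, and reads of the shared stretch cannot be told apart without strand. Tmem59 was above 10 TPM in 3 of 14 H2-Aa-high cells (21.4%, 4.66 to 50.8%) and in 19 of 24 H2-Aa-low cells (79.2%, 57.8 to 92.9%), a difference of -4.67. Beside Chil3 and S100a4, the next largest were the nuclear adenylate kinase gene Ak6 at -3.70, the mitochondrial inner membrane gene Minos1 at -3.22, the signal regulatory gene Sirpb1a at -3.13 and the pentose phosphate enzyme gene Taldo1 at -2.96. Anxa1, the annexin that limits inflammation, had a median of 34.9 TPM in H2-Aa-high and 769 TPM in H2-Aa-low cells, a difference of -2.91. The remaining 7 of the 15, Eif3k, Krt80, Sdhd, Npm1, Hp, Wipf1 and Txn1, lay between -2.91 and -2.71. Each of the 15 genes had H2-Aa-high cells within the range of the H2-Aa-low cells.

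The genes whose levels were most like that of H2-Aa over the 38 cells, by Spearman's rho among 2891 genes above 1 TPM in at least 50% of them and outside the class II list, were Atr at 0.61, Dfna5 at 0.59, Tmem176b at 0.58, Mier1 at 0.53 and Gmps at 0.52. H2-Ab1, Cd74 and H2-Eb1 had 0.76, 0.76 and 0.74. Within the 14 H2-Aa-high cells the same 5 genes had 0.06, 0.35, 0.12, -0.17 and 0.41. The other 5 of the 10 with the highest rho, Ppip5k1, Tceanc2, Rpl10a-ps1, Hsd3b2 and Acer2, had 0.48 to 0.50 over all cells and -0.43, 0.58, 0.18, 0.20 and -0.37 within the H2-Aa-high cells, so the 10 genes had no common direction there. Atr, a DNA damage kinase gene, had 5.09, 29.3 and 57.7 TPM in H2-Aa-high and 0, 11.07 and 36.5 TPM in H2-Aa-low cells.

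Markers of other cells with class II transcripts were looked at in the same cells. The B cell genes Cd79a and Igkc were listed at 0 in all 38 cells, as was the macrophage gene Cd63. A listed 0 can also be a failed estimate, so the zeros given here do not show that a transcript was absent. Of 14 B cell genes 6 were at 0 in every blood cell and 7 were measured. Of these 7, 2 were at least 2-fold higher in H2-Aa-high cells, beside 13.1% of all measured genes, with a median of 0.82. Without blood cell 29 the count was 1 and the median 0.68. Ighm, the immunoglobulin M heavy chain, was above 10 TPM in 6 of 14 H2-Aa-high and in 5 of 24 H2-Aa-low cells, up to 576 and 2113 TPM. Cr2, the complement receptor, reached 39.9 TPM in H2-Aa-high and 5.48 TPM in H2-Aa-low cells, a difference of 1.16, or 0.86 without blood cell 29. The summed level of the list ran from 1.55 to 577 TPM in H2-Aa-high cells (median 51.5) and from 1.64 to 2114 TPM in H2-Aa-low cells (median 6.12). Platelet, erythroid and NK cell lists had 0 measured members, the 7 basophil, mast cell and eosinophil genes were at 0 in every blood cell, and the T cell list summed to at most 16.97 TPM in H2-Aa-high and 20.8 TPM in H2-Aa-low cells. The neutrophil list had 3 measured members, of which the cytokine receptor gene Csf3r, also expressed by monocytes, differed by -1.37, and a median of 0.16 (-0.03 without blood cell 29).

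The same threshold was applied to bone marrow monocytes, which the rule did not use and which lie on the same flow cell and lane. Of 38 blood monocytes, 14 exceeded 10 TPM of H2-Aa (36.8%, 21.8 to 54.01%), and of 57 bone marrow monocytes 8 did (14.04%, 6.26 to 25.8%). Above 1000 TPM it was 12 of 38 blood (31.6%, 17.5 to 48.7%) and 3 of 57 bone marrow monocytes (5.26%, 1.10 to 14.6%). Of the 8 marrow cells 4 lay above 100 TPM and the other 4 between 11.03 and 16.5 TPM, so the threshold took in cells near it in marrow. In cMoP, 34 of 66 cells exceeded 10 TPM but only 6 of 66 exceeded 1000 TPM.

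In the marrow cells the class II genes differed in the same direction, and the other genes in part. The class II list without H2-Aa had a median of 2.38 between the 8 marrow cells with H2-Aa above 10 TPM and the other 49. With the threshold at 100 TPM, which left 4 cells above it, the median was 5.91, and at 1 TPM it was 0.18. Tmem176b was higher by 4.04 in the 8 marrow cells, and by 6.18 in the 4 cells above 100 TPM, where it had 10.3, 920, 1460 and 1892 TPM. The cell with 1892 TPM had 2401 TPM of Lyz2, whose next lowest value among the 8 cells was 33304 TPM. That cell was kept in all marrow values. Chil3 differed by -1.19 and S100a4 by -1.25 in the 8 marrow cells. Tmem59 differed by 0.12 there and by 2.69 in the 4 cells, against -4.67 in blood. Ciita was above 10 TPM in 2 of the 8 marrow cells and in 0 of the other 49, a difference of 1.96. Of the 10 largest higher genes of blood outside class II, 6 were higher and 4 lower in the 8 marrow cells, and of the 15 largest lower genes 11 were lower and 4 higher, while of all 10390 measured genes 4441 were higher and 5931 lower there. With the threshold at 100 TPM the higher genes of blood were 7 higher and 3 lower and the lower genes 9 lower and 6 higher in marrow, beside 4275 higher and 6097 lower of all genes. Ly6c2 differed by -0.65 in marrow, and Cd86 by -2.39, against 1.99 in blood.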

How the data were processed

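Single mouse cells were profiled by mRNA sequencing on the Fluidigm C1, with oligo(dT) priming and Nextera XT libraries per the labels' protocols. The authors deposited TPM per gene symbol and cell, made with RSEM 1.2.19 on GRCm38 per the submitters' processing notes. The aligner and annotation were not given in the sources used here. Read depth cannot be recovered from TPM and is unknown. TPM also sums to a fixed total, so abundant transcripts lower all others in a cell. Low genes and exact zeros can reflect loss in capture.

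From the deposited TPM, means of log2(TPM + 1) over cells were compared, with a pseudocount of 1, which understates differences of low genes. Genes above 1 TPM in at least 10% of the 38 blood cells were kept, and a difference of at least 2-fold on that scale was counted, with no test. Shares of cells carry 95% exact (Clopper-Pearson) intervals, and a share of 0 the limit of 3 cells; both cover counting of cells only. Doublets were neither called nor removed. Python 3.11.15, pandas 2.3.3, numpy 2.4.6 and scipy 1.17.1 were used. Gene positions came from GENCODE M21 and promoters from RefSeq, both on GRCm38. Symbols not in the table were matched by RefSeq synonyms.

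The members, the 23 gene lists and the rules were chosen with earlier results of these data known. Genes named were the measured class II genes and regulators, Ly6c2 and Ly6c1, a set of defining genes, the 15 largest differences in each direction among genes found above 1 TPM in 50% or more of the higher group, up to 5 per other list and the 10 highest rho with H2-Aa. Predicted, mitochondrial and ribosomal protein genes and microRNAs were left out of the largest differences. Apoc2, Cd14, C1qa, C1qc, Cd63, Pou2f2 and Pglyrp1 were named after their values were seen. The alternatives tried were other pseudocounts, H2-Aa thresholds, filters, scaling and sets of cells.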

Additional observations from a re-analysis of the deposited data

How the results depend on the processing

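Of 167 values under alternatives for 15 results, 17 moved by more than 1.5 times for a count, or by more than the SD over cells for a difference or median. That SD is wide, so the other 150 include changes of sign. Values of opposite sign numbered 17, in 7 results, of which 0 had been at or past 2-fold as given. The count of genes at least 2-fold higher, 1359, was 2566 with a pseudocount of 0.1, 378 with one of 10 and 2561 from the ratio of mean TPM. The count at least 2-fold lower, 710, was 1360, 259 and 2464 under these settings and 1788 with the H2-Aa threshold at 1 TPM, where the lower group has 6 cells. Median-ratio size factors gave 1863 higher and 519 lower and moved the median of all genes to 0.31. The class II median of 5.12 was 6.78 and 3.32 with these pseudocounts, 2.81 from the ratio of mean TPM, 2.97 with the threshold at 1 TPM and 2.61 without a filter. From the ratio of mean TPM the regulator median was -0.81 and the median of the type 2 dendritic cell list 1.55. That list had no member under the stricter filter. The B cell median of 0.82 was 0 without a filter. The bone marrow median of 2.38 was 0.18 at 1 TPM and 5.91 at 100 TPM. The causes were not tested. The classical monocyte median stayed below 0 under every alternative, between -1.25 and -0.24, as the macrophage median stayed above 0, between 0.0018 and 1.38. With the threshold at 1 TPM Ly6c2 was at -0.94 and the medians were -1.08 for type 1 and -0.13 for type 2 dendritic cells, -0.46 for Ly6C-low and -0.36 for immediate early genes. Without the 8 cells of fewest and most genes, the Ly6C-low median was -0.17 and the type 1 median -0.34. The type 1 median was also -0.18 with a pseudocount of 10 and -0.29 from the ratio of mean TPM, and the type 2 median -0.23 with the threshold at 100 TPM and -0.03 without blood cell 29. Ly6c2 was -0.84 without the 3 cells at or below 10 TPM of Ly6c2, all H2-Aa-low, a choice that by itself lowers the difference. The regulator and plasmacytoid medians, close to 0, reached 0.06 and 0.18. No paired analysis was possible because the groups are cells of 1 sample each and the labels give no replicate numbers. With 14 and 24 cells, shares of cells have wide intervals.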
